A study of Homo sapiens with 10 samples.

Results

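The doublecortin-like kinases were followed across 10 RNA-seq libraries of A549 cells, a lung adenocarcinoma cell line in long use as a model of the alveolar epithelium. The family has 4 members here, DCLK1, DCLK2, DCLK3 and DCX, which are 4 of the 33551 rows of the count table. They were taken by name, and the family was chosen by the measured level of DCLK1, which is high in the E690K line. For that reason the levels of the 4 genes in E690K are given below as a description, with no test, and tests are kept to the vector and to the other lines. The tests of the other lines use the same WT libraries as the E690K comparison. They are therefore not fully independent of the choice of DCLK1. Of the 4 genes, DCLK1 and DCLK2 passed the filter on low counts and could be fitted, and DCLK3 and DCX did not.

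The cells came as 5 lines, labelled by their ABCA3 genotype as wild-type (WT), knockout (KO), L101P, E292V and E690K. ABCA3 is the lipid transporter of the lamellar bodies of alveolar type 2 cells. Each line gave 1 untreated library and 1 library of cells exposed overnight to a lentivirus that carries an ABCA3:GFP fusion, at a multiplicity of infection of 20. Each genotype is 1 line, and the labels do not say whether a line is a clone or how it was edited, so a difference between lines cannot be told apart from a difference between genotypes. Single-library values have no replicate error.

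Doublecortin proteins bind microtubules through doublecortin domains and stiffen them, and they are best known from migrating and growing neurons. DCX is the doublecortin of immature neurons and has no kinase domain. DCLK1 and DCLK2 join doublecortin domains to a serine/threonine kinase related to the calcium/calmodulin-dependent kinases, and DCLK3 is a less studied kinase of the same family. DCLK1 is also used as a marker of tuft cells in the gut and has been studied in tumour cells with stem-like behaviour. Shorter forms of DCLK1 that lack the doublecortin domains arise from a start site inside the gene.

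In GENCODE release 29 on GRCh38, DCLK1 (ENSG00000133083.14) lies on the minus strand at chr13:35768652-36131306. DCLK2 (ENSG00000170390.15) lies on the plus strand at chr4:150078274-150257457, DCLK3 (ENSG00000163673.7) on the minus strand at chr3:36712422-36764349 and DCX (ENSG00000077279.18) on the minus strand at chrX:111293779-111412429. Of the 5 coding DCLK1 transcripts in that annotation, 3 begin at the outer end of the gene and 2 begin inside it, 275.4 kb downstream. A gene-level count adds the transcripts of both starts, so the long and short forms of DCLK1 are not told apart by any value below.

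Bases upstream of RefSeq start sites (build GRCh38.p14) are printed to show the letters before the outermost and the inner start of DCLK1. Beside them are the runs before DCLK2, an expressed relative, and before an inner start of DCX, which gave no counts. RefSeq has 3 DCLK1 starts. The run before the middle one, inside the gene as RefSeq draws it, is described by its counts alone. The DCX run, like that of the inner DCLK1 start, also lies inside its gene. Further RefSeq starts of DCX lie upstream of it, at positions 111412097 and 111412192. Each run reads 5′ to 3′ on the strand of its gene, stops before any exon that GENCODE annotates for the gene, and has each CpG (C followed by G) in capitals.
DCLK1, outermost start, chr13:36131940-36132189: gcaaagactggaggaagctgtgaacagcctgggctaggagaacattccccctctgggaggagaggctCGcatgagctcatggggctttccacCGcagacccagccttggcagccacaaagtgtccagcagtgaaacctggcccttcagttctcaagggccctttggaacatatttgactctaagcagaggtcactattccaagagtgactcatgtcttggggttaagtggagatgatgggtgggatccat
DCLK1, inner start, chr13:35855862-35855917: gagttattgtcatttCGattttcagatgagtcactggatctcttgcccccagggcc
DCLK2, chr4:150078195-150078273: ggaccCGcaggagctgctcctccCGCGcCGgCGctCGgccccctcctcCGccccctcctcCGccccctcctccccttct
DCX, chrX:111411147-111411396: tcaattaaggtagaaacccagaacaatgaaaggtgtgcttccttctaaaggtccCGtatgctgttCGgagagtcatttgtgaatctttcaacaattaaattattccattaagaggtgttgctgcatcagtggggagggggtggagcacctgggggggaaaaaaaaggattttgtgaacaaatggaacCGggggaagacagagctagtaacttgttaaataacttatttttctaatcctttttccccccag

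Over the whole 250 bases before the start, the outermost DCLK1 start had 2 CpG and a GC content of 54.0%, the middle start, at position 36131382, had 22 CpG and 68.8%, and the inner start had 5 CpG and 50.8%. The middle start was thus the CpG-rich one of the 3. It also lies nearest to position 36131306, the GENCODE start of the 3 outer DCLK1 transcripts. DCLK2 had 25 CpG and 75.2% GC, DCLK3 had 17 and 67.6%, and the DCX start shown had 3 and 42.0%. The median over 35114 RefSeq promoter windows of the same length was 11 CpG and 58.0% GC. At least 22 CpG were found in 28.0% of these windows. A set of 3 standard motifs was searched on both strands in the same 250 bases. TATAAA was in 10.7% of all windows and in 0 of the 3 DCLK1 windows. GGGCGG was in 42.6% of all windows, with 1 match at the middle DCLK1 start, 0 at the other starts of DCLK1 and 2 at DCLK2. TGANTCA was in 6.57% of all windows, with 2 matches at the inner DCLK1 start, 1 at the outermost and 0 at the middle one. A match is a run of letters and no evidence of binding.

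Depth ran from 59430095 to 96811421 counts per library. The epithelial keratins and adhesion genes on the marker list (6 of 6 averaging 1 or more CPM, counts scaled to a common library total) summed to 8034 to 14750 CPM, and of the 10 alveolar type 2 markers only ABCA3 reached a mean of 1 CPM. The pair labelled KO goes against its labels: ABCA3 was at 600.5 CPM in the library labelled untreated and 25.8 CPM in the library labelled transduced, and the EGFP row fell from 37.9 to 0.049 CPM. In the other lines EGFP was at 70.9 CPM untreated and 153 CPM transduced in WT, 1.01 and 35.9 CPM in L101P, 20.7 and 66.8 CPM in E292V, and 16.3 and 18.0 CPM in E690K. The untreated WT library thus had more EGFP than the transduced libraries of L101P, E292V and E690K, and the E690K pair hardly differed. ABCA3 was also lower in the transduced than in the untreated L101P library (896 against 1156 CPM). Every value for the vector below rests on the labels of treatment, which these rows do not bear out in each pair.

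DCLK1 was low in WT and E292V, intermediate in L101P and KO and highest in E690K. In WT it had 146 counts untreated and 151 transduced, levels of 1.75 and 1.86 CPM. In E292V it had 218 and 140 counts, 2.76 and 1.48 CPM. In L101P it had 254 and 754 counts, 4.27 and 7.79 CPM. These values place the L101P libraries above every WT and E292V library. In the pair labelled KO it had 460 and 880 counts, 6.14 and 10.8 CPM. In E690K it had 1310 and 1644 counts, 17.3 and 21.0 CPM, which were the 2 highest of the 10 libraries. By mean level the order was WT at 1.80 ± 0.078 CPM, E292V at 2.12 ± 0.911, L101P at 6.03 ± 2.49, KO at 8.49 ± 3.32 and E690K at 19.2 ± 2.63 (SD, n = 2 libraries per line, 1 of them transduced). WT and E292V overlapped, and so did L101P and KO. The steps from E292V to L101P and from KO to E690K were free of overlap, as they were, upwards, for 20.6% and 22.1% of all genes tested.

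**Figure D1:**
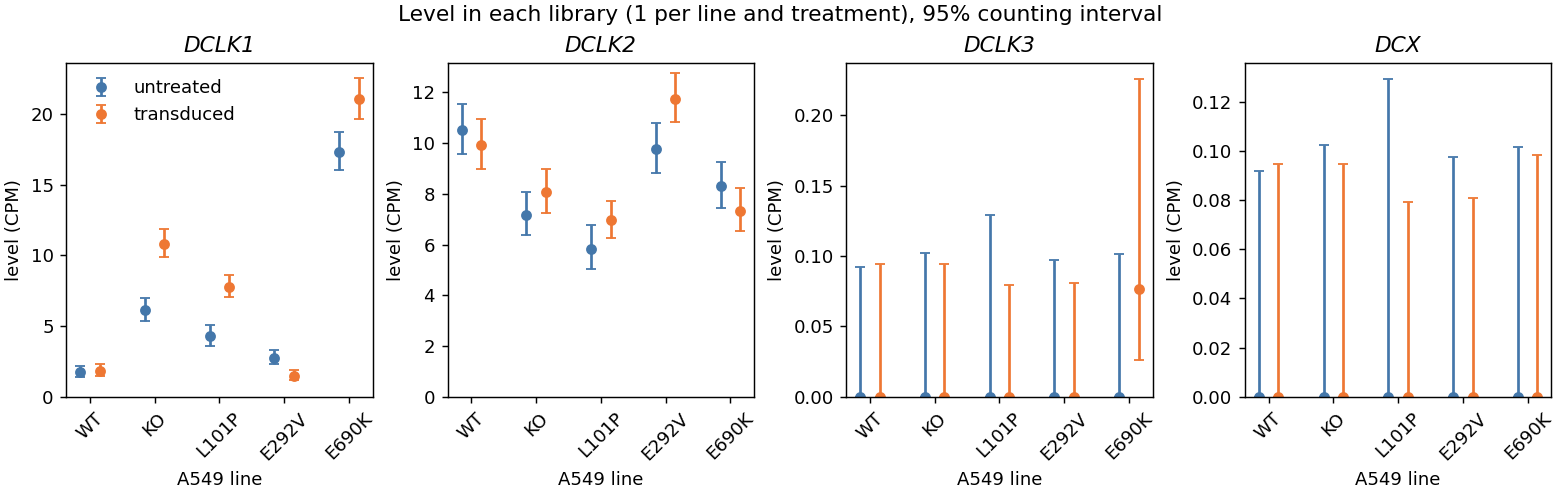
Level (CPM) of each doublecortin-like kinase gene for the 5 A549 lines, with untreated libraries in blue and transduced libraries in orange; points are single libraries and bars are 95% Wilson counting intervals. DCLK1 runs from 1.48 to 21.0 CPM, DCLK2 from 5.84 to 11.8 CPM, and DCLK3 and DCX sit at or near 0 on much smaller axes.

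DCLK2 followed a different and much flatter pattern, with a lowest library of 5.84 and a highest of 11.8 CPM. It had 879 and 806 counts in WT, untreated and transduced, which are 10.5 and 9.92 CPM. In E292V it had 770 and 1115 counts, 9.76 and 11.8 CPM. In E690K it was at 8.30 and 7.33 CPM, in KO at 7.18 and 8.08 CPM and in L101P at 5.84 and 6.95 CPM. The order of the lines was L101P, KO, E690K, WT and E292V. KO overlapped with E690K and WT overlapped with E292V. L101P lay below KO, as for 16.7% of all genes tested, and E690K lay below WT, as for 33.9%. Both L101P libraries lay below both WT libraries, as for 27.5% of genes.

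DCLK3 and DCX were at the detection limit. DCLK3 had 6 counts in the transduced E690K library (0.077 CPM, 95% Wilson interval 0.026 to 0.226) and 0 counts in the other 9. DCX had 0 counts in all 10 libraries. A nominal 3 counts would be 0.031 to 0.050 CPM, so levels of these genes below that range were not detectable at this depth, and the upper ends of the intervals for 0 counts lay between 0.079 and 0.129 CPM.

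The balance within the family shifted from line to line. DCLK1 took 14.2% and 15.8% of the family's counts in the WT pair, 22.1% and 11.2% in E292V, 42.3% and 52.8% in L101P, 46.1% and 57.3% in KO, and 67.6% and 74.0% in E690K. Levels of different genes need a correction for length, and the merged exons of DCLK1 (14375 bases) are longer than those of DCLK2 (4606 bases). On the scale of CPM per kilobase, DCLK1 stood at 0.040 to 0.919 of DCLK2 over the 10 libraries. By counts alone the ratio ran from 0.126 to 2.87 and was above 1 in both E690K libraries and in the transduced KO and L101P libraries. The length of the DCLK1 forms expressed is not known, so these values do not settle which gene was the more abundant per length.

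The comparison of lines with WT asks how the lines differ whatever the vector, with the terms for line and vector added up in a model of all 10 libraries. DCLK1 was higher than WT in the pair labelled KO, 3.51 times in the untreated and 5.83 times in the transduced libraries. On the log2 scale the fitted difference was 2.23 (SE 0.33, edgeR adjusted p 0.00578). In L101P it was 2.45 times WT untreated and 4.19 times transduced, with a fitted log2 difference of 1.76 (SE 0.33, edgeR adjusted p 0.0132). Among all 17978 genes tested, 1.8% were called in KO (0.807% higher, 0.99% lower) and 3.94% in L101P (2.33% higher, 1.61% lower). The 2 libraries of a line lay above both WT libraries for 18.6% of genes in KO and 16.6% in L101P. Ranked by fold change among the higher genes called that averaged 1 CPM or more, DCLK1 was in place 6 of 144 in KO and 22 of 414 in L101P.

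Without the KO pair, whose labels are in doubt, the L101P value was 1.79 (edgeR adjusted p 0.0183), and with the KO labels exchanged the KO value was 2.25 (edgeR adjusted p 0.0178). Each call held in 19 of 20 alternatives. The KO call was lost without the transduced KO library (log2 fold change 1.86, edgeR adjusted p 0.0883), and the L101P call without the transduced WT library (1.64, 0.0907). In E292V the DCLK1 libraries fell on either side of WT, 1.58 times untreated and 0.794 times transduced. The fitted log2 fold change there was 0.25 (SE 0.34, edgeR adjusted p 0.880; t interval on 4 residual degrees of freedom -0.69 to 1.19), where 1.05% of genes were called (0.295% higher, 0.756% lower). Without the untreated E292V library it was -0.56 (edgeR adjusted p 0.545).

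In E690K, where DCLK1 was picked, it stood at 9.91 times WT untreated and 11.3 times transduced. The fitted log2 difference was 3.45 (SE 0.34), the value at place 2 of the 538 higher genes called there that averaged 1 CPM or more. In this contrast 5.38% of all genes were called (3.05% higher, 2.33% lower), and 18.4% had both E690K libraries above both WT libraries. These numbers restate the choice of the gene.

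DCLK2 moved the other way in L101P. It stood at 0.555 of WT without the vector and 0.701 with it, and the fitted log2 fold change was -0.64 (SE 0.16, edgeR adjusted p 0.0413). This call sat close to the threshold and was lost without the KO pair (edgeR adjusted p 0.0803), without the E690K pair (0.0660), without either WT library (0.266 without the untreated, 0.105 without the transduced), without the untreated L101P library (0.0790), or without any 1 of the KO or E690K libraries (0.0531 to 0.0624). In KO, DCLK2 stood at 0.682 and 0.814 of WT (log2 fold change -0.40, SE 0.15), which did not pass (edgeR adjusted p 0.254). In E292V the log2 fold change was 0.06 (SE 0.15, edgeR adjusted p 0.942, t interval -0.36 to 0.49). In E690K it stood at 0.789 of WT untreated and 0.739 transduced, given without a test. Of the 2 members that could be fitted, 1 was called in KO, 2 in L101P and 0 in E292V. Over all genes tested, 1.8% were called in KO, 3.94% in L101P and 1.05% in E292V.

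**Figure D2:**
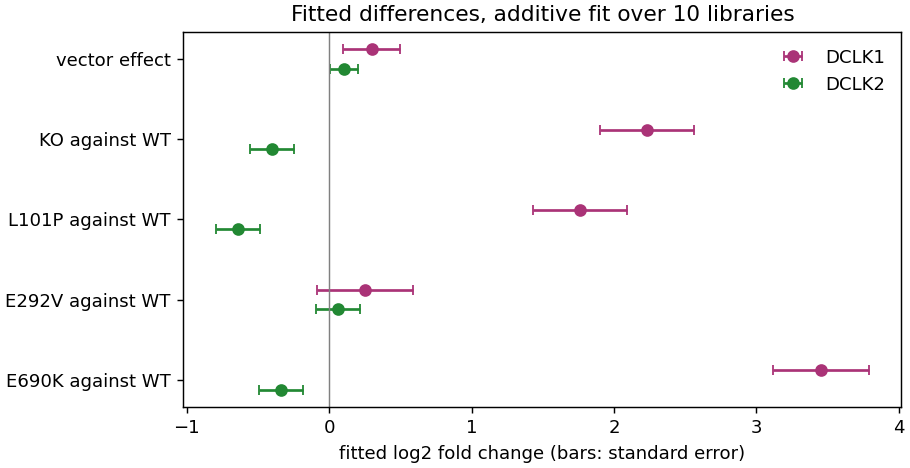
Fitted log2 fold changes of DCLK1 (purple) and DCLK2 (green) for the vector and for each line against WT, fitted over all 10 libraries together; bars are standard errors. DCLK1 lies at 1.76 to 3.45 in KO, L101P and E690K, where DCLK2 lies between -0.64 and -0.34; the E690K values are a description.

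The vector was tested over the 5 lines as replicates, each line against itself, with treatments taken as labelled despite the EGFP levels given above. The vector effect on DCLK1, on the log2 scale, was 0.30 (SE 0.20, edgeR adjusted p 0.853, t interval -0.26 to 0.86) and that on DCLK2 was 0.11 (SE 0.10, edgeR adjusted p 0.909). Over all genes 0% were called by edgeR, 1236 genes had an unadjusted p under 0.05, and the DESeq2 Wald test called 113. The DCLK1 levels moved apart within single lines. From the untreated to the transduced library DCLK1 went to 1.77 times in the pair labelled KO (counting interval 1.51 to 2.07), 1.82 times in L101P (1.49 to 2.23) and 1.22 times in E690K (1.10 to 1.35). It went to 0.534 times in E292V (0.395 to 0.721) and 1.06 times in WT (0.771 to 1.47).

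Changes of that size were uncommon in these pairs but present in other genes. Of 12965 genes averaging 1 CPM or more, 1.26% moved as much or more in KO, 3.09% in L101P and 1.90% in E292V, against 10.1% in E690K and 64.1% in WT. With 1 library per line and treatment, a change with the vector in a single line cannot be told apart from a difference between 2 libraries. The direction in KO rests on the labels of that pair: with them exchanged the fitted vector effect on DCLK1 was -0.067 (edgeR adjusted p 1.00), and without the pair it was 0.15 (0.999). Whether WT answered the vector otherwise than the other 4 lines was put to an interaction term, which gave -0.25 (SE 0.51, edgeR adjusted p 1.00) for DCLK1 and -0.24 (SE 0.25, 0.999) for DCLK2. DCLK2 ratios lay between 0.883 and 1.20 in the 5 lines, and the E292V interval (1.06 to 1.37) was the one clear of 1.

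**Figure D3:**
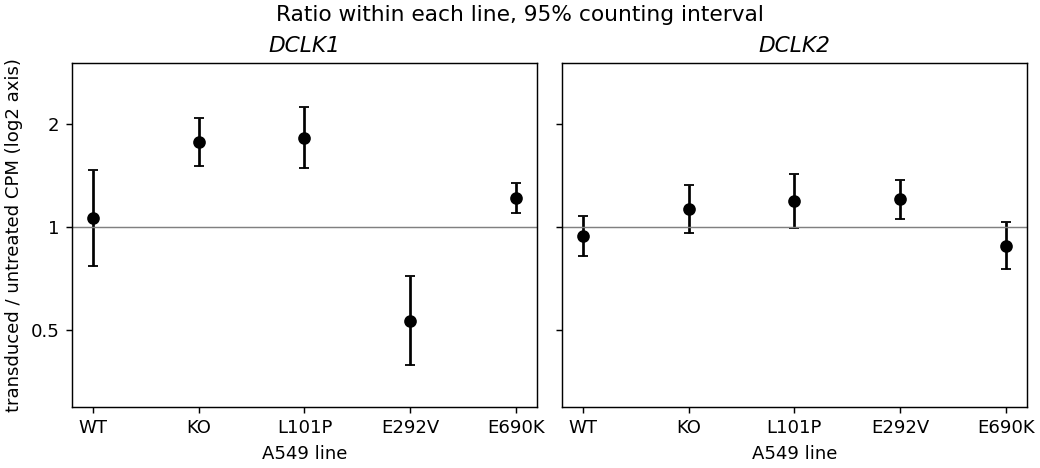
Ratio of transduced to untreated level (CPM, log2 axis) of DCLK1 and DCLK2 in each line, with 95% intervals that cover counting error only. DCLK1 ratios range from 0.534 in E292V to 1.82 in L101P, and DCLK2 ratios from 0.883 to 1.20.

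Genes around DCLK1 on chromosome 13 were examined next. Within 5 Mb of the DCLK1 start, 23 genes were tested that averaged 1 CPM or more. Against WT, the KO line had a median log2 fold change of 0.03 over these genes, L101P one of -0.02, E292V one of 0.09 and E690K one of 0.02. In KO 1 neighbour was called higher and 0 lower, in L101P 1 higher and 1 lower, and in E690K 0 higher and 1 lower. Over all genes tested, 1.8% were called in KO, 3.94% in L101P and 5.38% in E690K. The nearest tested gene on one side, NBEA, a neurobeachin of vesicle traffic, lay 1189 kb away. It exceeded WT in KO (log2 fold change 0.54, SE 0.12, edgeR adjusted p 0.0445) and L101P (0.53, SE 0.12, 0.0298), and in E690K it was at 0.18 (SE 0.12, edgeR adjusted p 0.475). The nearest on the other side, SPART, lay 238.9 kb away and was lower in E690K (-0.54, SE 0.11, edgeR adjusted p 0.0129). The SPART call was lost without any 1 of the WT or E690K libraries (edgeR adjusted p up to 0.143), and the NBEA calls without either WT library, among others (up to 0.305). The neighbour called lower in L101P was LHFPL6, 3472.2 kb from the DCLK1 start, with a log2 fold change of -1.67 (edgeR adjusted p 0.0340), close in size to the 1.76 of DCLK1 there. Its call held in 15 of 20 alternatives and was lost without the E690K pair or without the transduced WT, the transduced L101P or either E690K library (up to 0.222).

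**Figure D4:**
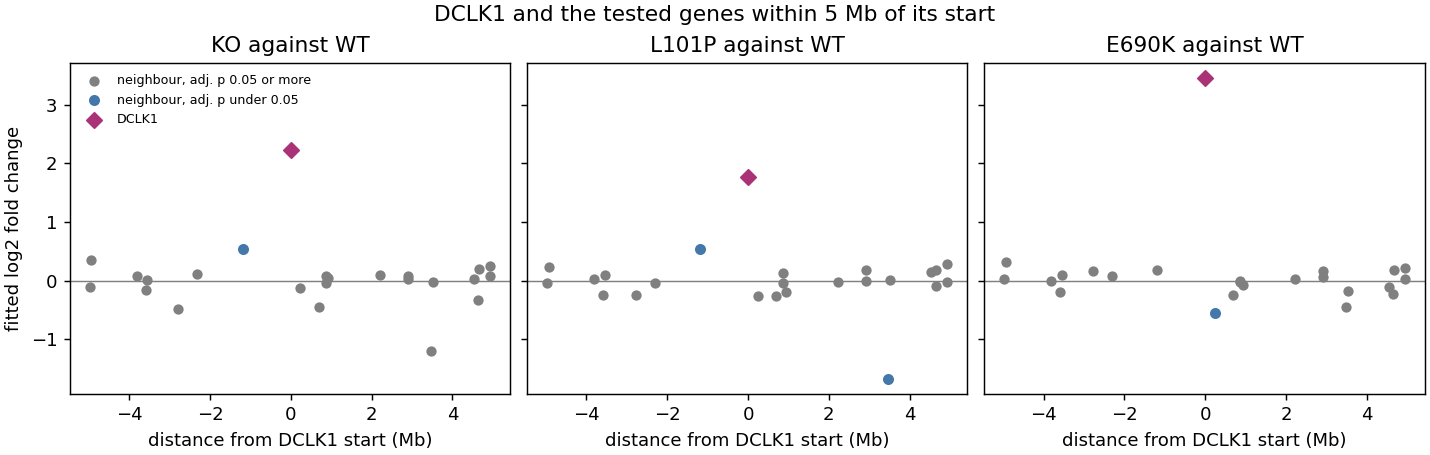
Fitted log2 fold change of DCLK1 (purple diamond) and of the 23 tested genes within 5 Mb of its start (circles; blue where the edgeR adjusted p is under 0.05), against distance from the start in Mb, for KO, L101P and E690K against WT. The neighbours have medians of 0.03, -0.02 and 0.02, and DCLK1 stands at 2.23, 1.76 and 3.45.

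Around DCLK2, 27 genes were tested, and 0 were higher and 3 lower in KO and in L101P, with 1 higher and 3 lower in E690K. The shares called over all genes were 1.8% in KO, 3.94% in L101P and 5.38% in E690K. The 3 lower genes in each of these lines were the fibrinogen chains FGA, FGB and FGG, 4484.7 to 4534.7 kb from the DCLK2 start, with log2 fold changes from -0.38 to -0.52 in KO, -0.69 to -0.94 in L101P and -1.22 to -1.72 in E690K. The E690K calls held in 20 of 20 alternatives, those in L101P in 19 or 20, and those in KO in 11 to 16 (lost without the untreated WT or either KO library, edgeR adjusted p up to 0.636). The nearest tested neighbours of DCLK2, LRBA at 937.5 kb and ARHGAP10 on the other side, were not called in any contrast (edgeR adjusted p 0.157 to 0.996).

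Other genes with doublecortin domains were read from a list of 7, of which 5 could be tested. DCDC2, a doublecortin-domain protein of primary cilia, was lower in 3 lines, those in which DCLK1 was high. It was at 36.4 and 43.5 CPM in WT, 49.96 and 61.8 CPM in E292V, 19.9 and 18.3 CPM in KO, 16.1 and 10.7 CPM in L101P and 13.0 and 11.1 CPM in E690K. Both libraries of KO, of L101P and of E690K lay below both WT libraries, and both E292V libraries lay above them. Over all genes, both libraries lay below both WT libraries for 27.3% in KO, 27.5% in L101P and 33.9% in E690K, and above them for 20.1% in E292V. Its log2 fold change from WT was -1.04 in KO (SE 0.17, edgeR adjusted p 0.00901), -1.55 in L101P (SE 0.17, 9.9e-04) and -1.68 in E690K (SE 0.17, 2.4e-04). The L101P and E690K calls held in 20 of 20 alternatives, and the KO call was lost without the transduced WT or the transduced KO library (edgeR adjusted p up to 0.150). The other 4 genes of the list did not pass in any contrast. Over all genes tested, 1.8% were called in KO, 3.94% in L101P and 5.38% in E690K.

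The calcium/calmodulin kinases, relatives of the DCLK kinase domain, were nearly flat. Of 22 tested genes 0 were called in KO, L101P and E292V, and in E690K 0 were higher and 1 was lower, DAPK1 (log2 fold change -0.35, SE 0.09, edgeR adjusted p 0.0419). Microtubule-associated proteins had 32 tested genes, of which 2 were higher and 1 lower in KO, 3 higher and 0 lower in L101P, 0 higher and 2 lower in E292V, and 3 higher and 0 lower in E690K. STMN3, a stathmin that destabilises microtubules, exceeded WT by 0.82 in KO, 0.50 in L101P and 0.61 in E690K on the log2 scale (SE 0.13 each), with edgeR adjusted p from 0.00682 to 0.0438. Its levels were 16.2 and 16.5 CPM in WT and 21.1 to 33.3 CPM in those 3 lines. The linker protein CLIP1 rose by 0.31 in KO (SE 0.07, edgeR adjusted p 0.0472), by 0.30 in L101P (0.0344) and by 0.31 in E690K (0.0256). NDE1, a dynein regulator, rose by 0.43 in L101P (SE 0.11, edgeR adjusted p 0.0474). The microtubule polymerase CKAP5 rose by 0.32 in E690K (SE 0.07, 0.0257). MAP1LC3B was lower in KO (-0.39, SE 0.09, edgeR adjusted p 0.0488), and in E292V the lower genes were MAP7D2 (-1.13, SE 0.10, edgeR adjusted p 5.4e-04) and MAP7 (-0.84, SE 0.14, 0.0130), which recruit kinesin. MAP7D2 was called in all 20 alternatives. STMN3 was called in 18, 10 and 17 of 20 for KO, L101P and E690K, and was lost in each of them without the transduced WT library (edgeR adjusted p up to 0.318). MAP7 was called in 17, and lost without the untreated WT or the transduced E292V library or the E690K pair (up to 0.0781). The calls of CLIP1, NDE1, CKAP5 and MAP1LC3B held in 9 to 12 of 20 and were lost without either WT or either E690K library (up to 0.614), and that of DAPK1 held in 13 and was lost without either WT, KO or E690K library (up to 0.300).

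Among 14 tubulins, the subunits of microtubules, 1 was higher in L101P, and 3 were higher and 1 lower in E690K. The shares called were 7.14% in L101P and 28.6% in E690K, against 3.94% and 5.38% of all genes tested. TUBA1C was at 443 and 412 CPM in WT, 501 and 563 CPM in L101P and 583 and 581 CPM in E690K. Its log2 fold change was 0.35 (SE 0.08, edgeR adjusted p 0.0354) in L101P and 0.49 (SE 0.08, 0.00490) in E690K. In E690K TUBA4A was also higher (0.44, SE 0.07, edgeR adjusted p 0.00424) and TUBB4A lower (-0.67, SE 0.17, 0.0392). The sources used here do not say how a read that matches several tubulins was counted, so tubulin values are uncertain. Of 13 kinesins 1 was called, KIF13B, higher in L101P (0.42, SE 0.10, edgeR adjusted p 0.0337). That is 7.69% of the kinesins, against 3.94% of all genes tested in L101P. In E690K, TUBA1C held in 19 of 20 alternatives (lost without the untreated E690K library, edgeR adjusted p 0.0899), TUBA4A in 18 (lost without either E690K library, up to 0.0642) and TUBB4A in 15 (lost without either WT or the untreated E690K library, among others, up to 0.425). The L101P calls of TUBA1C and KIF13B held in 10 and 11 and were lost without the transduced WT, the transduced L101P or either E690K library, among others (up to 0.249).

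Markers of tuft cells were low, and 2 of 6 averaged 1 CPM or more. POU2F3, the defining transcription factor, had 0 to 6 counts per library, the channel TRPM5 0 to 2, GNAT3 0 to 6 and GFI1B 0 to 32. AVIL was at 1.14 to 2.07 CPM and PTGS1 at 0.934 to 2.81 CPM. The 6 tuft markers summed to 3.41 and 4.76 CPM in the E690K libraries and to 2.18 to 4.47 CPM in the other 8. Of the wider list of 27 tuft genes, 15 were tested and 1 was called in any contrast, PTGS1, a cyclooxygenase, higher in E690K (log2 fold change 1.06, SE 0.26, edgeR adjusted p 0.0360). That is 6.67% of the list in E690K, against 5.38% of all genes tested. The PTGS1 call held in 11 of 20 alternatives and was lost without any 1 of the WT, KO or E690K libraries, among others (edgeR adjusted p up to 0.293). PTGS1 was at 0.934 and 1.45 CPM in WT and 2.14 and 2.59 CPM in E690K. It was at 2.07 and 2.81 CPM in KO, 1.65 and 1.88 CPM in L101P and 1.29 and 1.52 CPM in E292V.

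Neuronal and neuroendocrine genes gave 8 tested genes of 18, of which 12.5% were called in L101P and 12.5% in E690K. For the 14 tested stem and progenitor genes the shares were 7.14% in KO, 14.3% in L101P and 21.4% in E690K. Over all genes tested, 1.8% were called in KO, 3.94% in L101P and 5.38% in E690K. CHGB, a secretory granule protein, was higher in L101P (1.22, SE 0.25, edgeR adjusted p 0.0190), with 14.1 CPM untreated and 31.1 CPM transduced against 10.2 and 9.21 CPM in WT. It was at 18.0 and 21.5 CPM in KO, both above the untreated L101P library. In E690K it was at 13.4 and 11.9 CPM, and in E292V at 6.87 and 7.19 CPM. RBFOX3, a neuronal splicing factor, was lower in E690K (-0.68, SE 0.16, edgeR adjusted p 0.0327). Its levels were 9.91 and 7.41 CPM in WT, 5.91 and 4.54 CPM in E690K and 6.63 and 4.32 CPM in E292V. Of 14 tested stem and progenitor genes, the transcription factor KLF4 exceeded WT in KO (0.48, SE 0.11, edgeR adjusted p 0.0431), L101P (0.66, SE 0.11, 0.00623) and E690K (0.73, SE 0.11, 0.00185). The RNA-binding protein MSI1 was lower in L101P (-1.50, SE 0.37, edgeR adjusted p 0.0431) and E690K (-1.41, SE 0.37, 0.0428). SNAI2, a repressor of epithelial genes, was higher in E690K (1.55, SE 0.30, edgeR adjusted p 0.0114). KLF4 held in 19 of 20 alternatives in L101P (lost without the transduced WT library, edgeR adjusted p 0.0602) and in E690K (lost without the untreated E690K library, 0.0563), and in 12 in KO (lost without any 1 of the WT, KO or E690K libraries, up to 0.538). CHGB held in 18 (lost without the transduced WT or the transduced L101P library, up to 0.150) and SNAI2 in 17 (lost without either WT or the untreated E690K library, up to 0.162). RBFOX3 and MSI1 held in 9 to 12 and were lost without any 1 of the WT, KO or E690K libraries (up to 0.317). The remaining stem and progenitor genes did not pass, and 0 genes of the 8 lists were called for the vector.

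Last, 2188 genes that averaged 1 CPM or more and spanned 1 or more in log2 CPM were ranked by the Pearson correlation of their level with that of DCLK1 over the 10 libraries. Among the 5 highest were PORCN, the acyltransferase of Wnt proteins (0.97), the immediate early transcription factors FOSB (0.96) and EGR1 (0.96), and the annexin ANXA8 (0.96). The 5 lowest were FAM117A (-0.98), the complement component C5 (-0.94), and the noncoding genes NR2F1-AS1 (-0.93), TMCC1-AS1 (-0.93) and AC090204.1 (-0.93). The points share their lines and libraries in pairs, so these values describe the 10 libraries and no p is given. Without the E690K libraries, EGR1 ranked 1 from the top (0.98 over 8 libraries) and FAM117A ranked 1 from the bottom (-0.99), while PORCN fell to place 19 and C5 to place 79. EGR1 was at 1.35 to 1.90 CPM in WT and E292V, 3.63 to 7.71 CPM in L101P and KO and 8.09 to 8.33 CPM in E690K. As EGR1 was picked by its likeness to DCLK1 over these libraries, a like split of the lines follows from that choice.

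**Figure D5:**
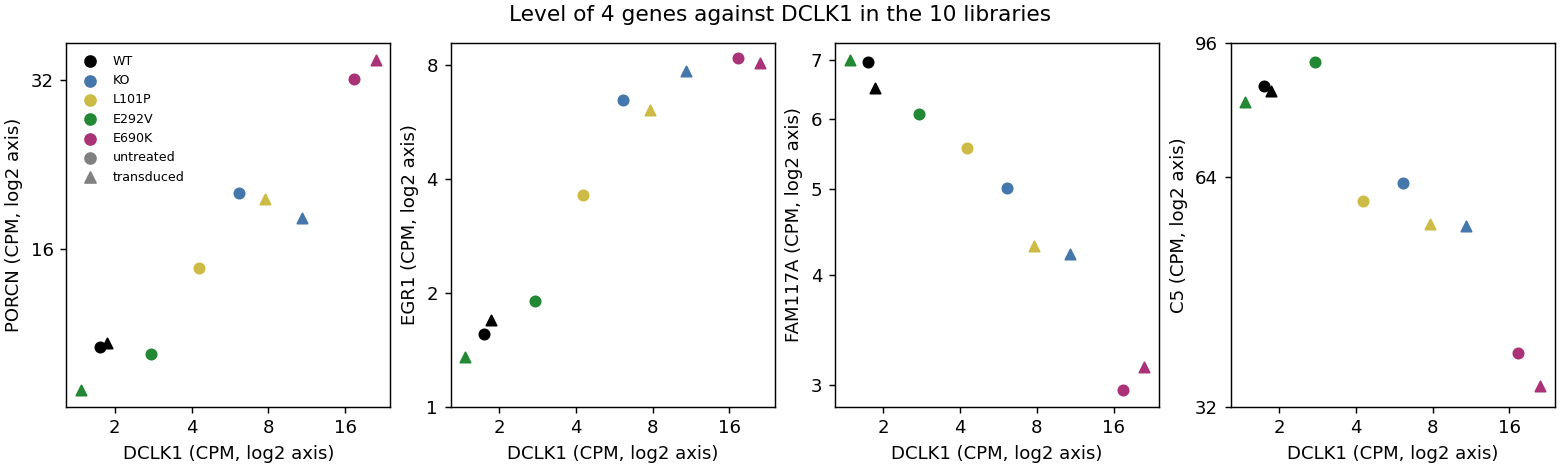
Level of PORCN, EGR1, FAM117A and C5 against that of DCLK1 in the 10 libraries (CPM, log2 axes); colours are lines, circles untreated and triangles transduced libraries. PORCN and EGR1 rise with DCLK1 (correlations 0.97 and 0.96) and FAM117A and C5 fall (-0.98 and -0.94).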

How the data were processed

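RNA-seq was done on 10 libraries, 1 per line and treatment. The deposited table holds raw counts per gene; per the submitters' processing notes, featureCounts of Subread and GRCh38 were used, and edgeR and limma are also named, without versions or roles. The aligner, annotation and use of strand are not given in the sources used here. Even numbers made up 81.4% of the counts from 1 to 10, against 51.5% of those above 1000, so intervals of single libraries are 95% Wilson intervals on the counts divided by 2 and cover counting error only.

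CPM were computed on library totals (59430095 to 96811421 counts). Counts were fitted with edgeR 4.0.16 in R 4.3.3: filterByExpr (17978 genes), TMM scaling, line and vector as additive terms (4 residual degrees of freedom), glmQLFit and glmQLFTest, and Benjamini-Hochberg adjustment over all genes with a threshold of 0.05. The standard error of a fold change is its size over the square root of F. P-values set a difference against the spread of these libraries around the additive fit. The labels name no separate cultures, so that spread may be technical. The t intervals use the 4 residual degrees of freedom alone, while glmQLFTest also draws on the spread of other genes. Libraries were paired by cell line. DESeq2 1.42.0 and limma 3.58.1 (voom) served as alternatives. The script was tested on simulated data. Positions and exon lengths came from GENCODE 29, which matched 98.5% of rows.

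The members, gene lists and tests were chosen with earlier results of these data known. Named list genes were at most 2 higher and 2 lower per list and contrast, by fold change among called genes that averaged 1 CPM or more, with the same direction in both treatments. The nearest tested gene on either side of DCLK1 and DCLK2, and the 5 genes most and least like DCLK1, were named, except 1 of the most like, which is not reported here; the fibrinogen genes, LHFPL6 and CLIP1 in L101P and E690K were named after their values were seen.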

Additional observations from a re-analysis of the deposited data

How the results depend on the processing

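DCLK1 against WT kept its direction in KO and L101P under the 20 alternatives run for each, with log2 fold changes of 1.86 to 2.55 and 1.34 to 2.10 when a pair or a library was left out, and its E690K difference stayed between 3.34 and 3.58. In E292V it ranged from -0.56 to 0.87 (reversed without the untreated E292V library), and DCLK2 there from -0.056 to 0.18 (reversed without the transduced E292V or the transduced WT library). DCLK2 in L101P ranged from -0.76 to -0.52 when libraries were left out and did not pass with the KO labels exchanged (-0.63, edgeR adjusted p 0.0782); in E690K it ranged from -0.51 to -0.18. The vector effect on DCLK1 was 0.14 to 0.55 when libraries were left out and -0.067 with the KO labels exchanged. No replicate block, that is the vector term without the line term, changed no call of DCLK1 or DCLK2 (0.44 and 0.10; 0 genes called). Without the KO pair, 0 genes passed for the interaction.

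Counts over all genes moved with the processing. In the order vector, KO, L101P, E292V and E690K, 0, 323, 709, 189 and 967 genes became 237, 982, 1437, 662 and 1659 without a filter on low counts and 113, 744, 1236, 432 and 1464 under the DESeq2 Wald test. With the KO labels exchanged the 4 line contrasts gave 142, 367, 105 and 599, and limma-voom called 26 for the vector. Leaving out a pair or a library gave 0 to 206, 25 to 1226, 180 to 1967, 13 to 810 and 169 to 2147. The cause of these shifts was not tested.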

Other observations

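DCLK2 had its own most similar genes among 2189 compared by the Pearson correlation of log2 CPM over the 10 libraries. The highest were EOMES, a T-box transcription factor (0.96), TBXA2R, the thromboxane receptor (0.95), and ZNF853 (0.94), and the lowest were APOL1 (-0.88), LINC00886 (-0.86) and the myosin MYO5C (-0.86). EOMES lay between 0.808 CPM in the untreated L101P library and 3.40 CPM in the transduced E292V library, the libraries in which DCLK2 was lowest and highest. DCLK1 and DCLK2 themselves had a correlation of -0.59 over the 10 libraries. These values describe libraries that come in pairs from 5 lines, and no p is given.

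The changes of DCLK1 and DCLK2 with the vector were examined over the 5 lines for a single extreme. The limit was a gap of 0.71 of the range. The gap was 0.561 of the range for DCLK1, at E292V, and 0.211 for DCLK2, at E690K. With 5 values per gene, a gap below the limit does not show that no line stands out.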
